A study of Mus musculus with 4 samples.

Results

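The matricellular genes described here are Spon1, Spon2, Sparc, Sparcl1, Thbs1, Thbs2, Tnc, Postn, Cthrc1 and Spp1, which encode proteins that cells secrete into their surroundings. A probe was assigned to a gene through the RefSeq accession that the array lists for it, without use of its signal. By this rule the 10 genes had 15 of the 56605 probes, among 22911 genes with a symbol. Both compared groups were mouse ovarian cancer cells in culture. ID8G cells are ID8 cells that were given GFP by retroviral transduction. GO2 cells descend from ID8G cells by 2 rounds of growth after intraperitoneal injection into C57BL/6 J mice, each followed by sorting of GFP-positive, CD45-negative cells from omental tumors and by culture. Both lines were kept in DMEM with FBS, insulin, transferrin and sodium selenite. Total RNA of each line was measured on 2 arrays of 1 color. GO2 is 1 selected line, so its differences from ID8G cells hold for that line, and no mouse or second selection stands behind the replicates. The labels do not say that the replicates came from separate cultures, so p-values measure only the spread between these arrays, which may be technical.

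Matricellular proteins sit in the extracellular matrix but build little of it. They bind integrins, other cell surface receptors, collagens and growth factors, and they change how cells attach, spread and respond to signals. Many are made at high levels in development, in healing wounds and in tumor stroma, and several have been studied in the spread of ovarian cancer over the peritoneum. Each family has its own fold. Thrombospondins and spondins share type 1 repeats, SPARC and Sparcl1 share a calcium-binding domain, tenascins are large multi-armed proteins, and osteopontin, the product of Spp1, is a flexible phosphoprotein that binds integrins and CD44.

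Cthrc1, Spon2, Thbs1 and Tnc were higher in GO2 cells, Sparc and Spp1 were measured in both lines and differed by less than 2-fold, and Spon1, Sparcl1, Thbs2 and Postn were not well above background on any array. The level of a probe is its log2 intensity relative to the 75th percentile of the array. A probe entered the limma fit if either cell line had it well above background on both of its arrays. It was called where the p adjusted by Benjamini-Hochberg was below 0.05 and the difference was at least 1 on the log2 scale, which is 2-fold. Of the 15 probes, 8 were tested, 5 were called higher in GO2 cells and 0 were called lower. Over all 28368 tested probes, 4.50% were called higher and 3.34% lower. By gene, 6 of the 10 were tested and 4 were called higher, where 6.44% of the 13215 tested gene symbols were called higher and 4.33% lower. The 4 include Tnc, which passed the filter through GO2 cells alone, could only be found higher and had a bound below 2-fold. With probes well above background on all 4 arrays, 3 of the genes were called higher. The 10 genes were chosen with earlier results of these data known, so these shares are no test of the list. Without the minimum difference, 7 of the 8 probes were higher and 1 was lower at an adjusted p below 0.05 (limma), where 17.0% of all tested probes were higher and 18.9% lower. The 1 lower probe, that of Spp1, was also the only one of the 8 that was lower at an unadjusted p below 0.05. In RNA of a whole culture, a change in the share of cells that make a transcript and a change in the RNA per cell cannot be told apart.

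**Figure D1:**
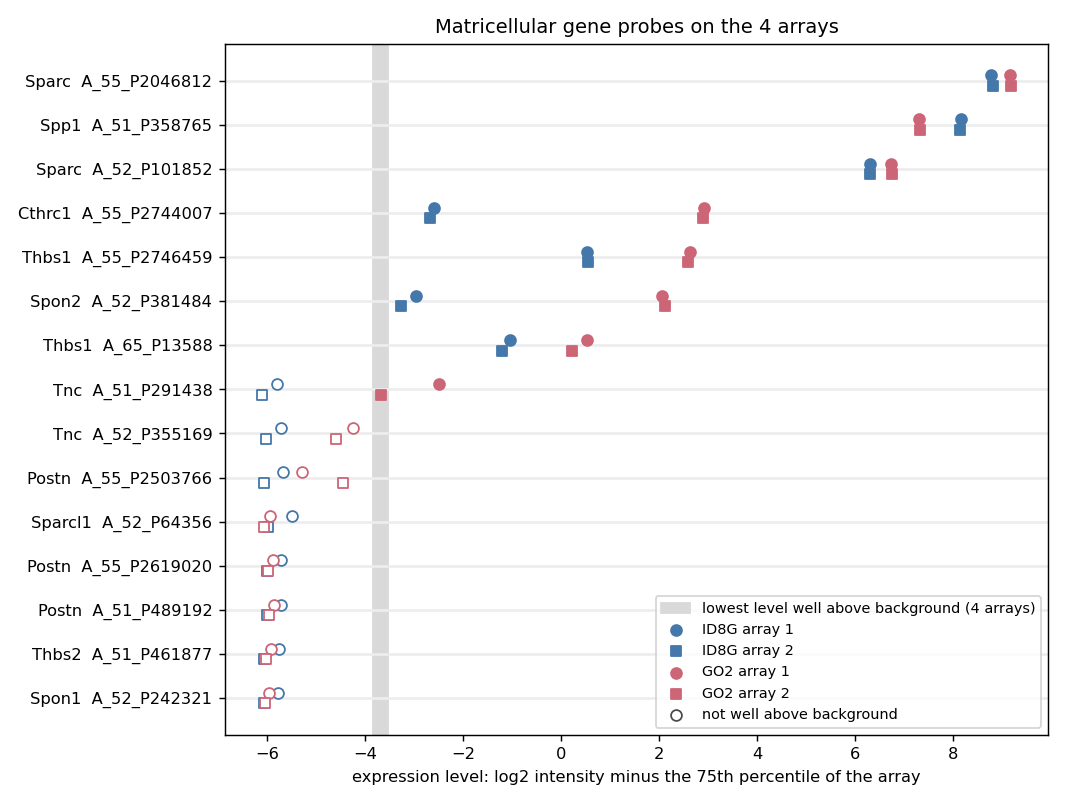
Level of each of the 15 probes on each array, as log2 intensity relative to the array's 75th percentile. Circles and squares are the 2 arrays of ID8G cells (blue) or GO2 cells (red), hollow marks were not well above background, and the gray band spans the lowest level well above background on the 4 arrays. The red marks of Cthrc1, Spon2, Thbs1 and Tnc lie to the right of the blue ones, those of Spp1 lie to the left, and 7 probes have hollow marks only. Levels of different probes depend on the probe and are not compared.

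Sequence upstream of the transcription start was at hand for 5 of the 10 genes, from RefSeq on GRCm38.p6. The 180 bases before a start are shown for Tnc, Sparc and Spp1, which are the tested genes among these and differ in their response. For Tnc and Spp1, which have more than 1 listed start, the first is shown. Capitals mark matches on either strand to the motifs searched, which were TATAAA for the TATA box, CCAAT for the box of that name, GGGCGG for the GC box, TGANTCA for AP-1, TGTGGT for RUNX and GGAATG for TEAD.
Tnc, chr4:64047016-64047195, minus strand: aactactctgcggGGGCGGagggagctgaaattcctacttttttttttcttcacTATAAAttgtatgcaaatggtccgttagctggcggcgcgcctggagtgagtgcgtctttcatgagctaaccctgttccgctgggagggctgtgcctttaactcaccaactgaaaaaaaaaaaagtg
Sparc, chr11:55420081-55420260, minus strand: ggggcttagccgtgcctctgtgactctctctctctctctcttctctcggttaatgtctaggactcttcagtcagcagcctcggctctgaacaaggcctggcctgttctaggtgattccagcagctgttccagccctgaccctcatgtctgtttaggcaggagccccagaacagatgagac
Spp1, chr5:104434931-104435110, plus strand: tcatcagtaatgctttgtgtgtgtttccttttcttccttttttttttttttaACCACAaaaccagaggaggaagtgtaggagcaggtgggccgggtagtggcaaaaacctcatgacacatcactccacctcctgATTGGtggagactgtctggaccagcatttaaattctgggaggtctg
The Tnc window holds GGGCGG at base -167 and TATAAA at base -126 from the start, both on the strand of the gene. The Spp1 window holds TGTGGT at -128 and CCAAT at -46, both on the opposite strand, so that the printed strand reads ACCACA and ATTGG there. The Sparc window holds none of the 6 motifs. Of 32851 promoter windows of the same length, 8.94% hold TATAAA, 27.5% CCAAT, 30.2% GGGCGG, 4.97% TGANTCA, 10.1% TGTGGT and 9.10% GGAATG. Matches are a description of the letters and were not related to the measurements.

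Cthrc1 encodes collagen triple helix repeat containing 1, a glycoprotein secreted at sites of tissue repair that also acts in Wnt signaling. Its probe, A_55_P2744007, had intensities of 113 and 105 in ID8G cells and of 4766 and 4690 in GO2 cells. As levels these were -2.58 and -2.67 in ID8G cells and 2.91 and 2.90 in GO2 cells. All 4 values were well above background, and the lines were far apart with no overlap. The mean level was -2.63 ± 0.06 (SD, n = 2) in ID8G cells and 2.91 ± 0.0042 in GO2 cells. The log2 difference was 5.53 with an SE of 0.06 and a 95% interval from 5.37 to 5.69, or 46.3-fold (limma, adjusted p = 0.000182). Among the 26020 tested probes that every array had well above background, it ranked 5 by size of increase.

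Spon2 encodes spondin 2, also called mindin, a secreted member of the F-spondin family that binds integrins on leukocytes and bacterial surfaces. Its probe, A_52_P381484, read 87.3 and 69.3 in ID8G cells and 2650 and 2729 in GO2 cells in intensity. The levels were -2.95 and -3.27 in ID8G cells and 2.06 and 2.12 in GO2 cells. Both ID8G values were dim but well above background, and both GO2 values lay far above them. Mean levels were -3.11 ± 0.23 (SD, n = 2) and 2.09 ± 0.04. The log2 difference was 5.20 with an SE of 0.12 and a 95% interval from 4.86 to 5.54, or 36.8-fold (limma, adjusted p = 0.00024), which ranked 6 in the same set. The related gene Spon1, which encodes F-spondin, a protein of the embryonic floor plate, had levels from -6.07 to -5.78 on the 4 arrays and was above background on none.

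Thbs1 encodes thrombospondin-1, a trimeric glycoprotein that binds CD47 and CD36, restrains blood vessel growth and can release TGF-beta from its latent form. The probe A_55_P2746459 had levels of 0.52 and 0.56 in ID8G cells and of 2.62 and 2.59 in GO2 cells. The second probe, A_65_P13588, had levels of -1.05 and -1.20 in ID8G cells and of 0.54 and 0.22 in GO2 cells. With either probe both GO2 arrays lay above both ID8G arrays. The first probe rose by 2.07 on the log2 scale (SE 0.05, 95% interval 1.93 to 2.21), or 4.19-fold (limma, adjusted p = 0.000248). The second rose by 1.50 (SE 0.13, 95% interval 1.14 to 1.87), or 2.83-fold (adjusted p = 0.00343). The probes shared their direction but not their size, since the 2 intervals did not overlap. Thbs2, which encodes the closely related thrombospondin-2, was above background on no array, with levels from -6.05 to -5.76.

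Tnc encodes tenascin-C, a large glycoprotein that loosens the attachment of cells to fibronectin and is prominent in tumor stroma. The probe A_51_P291438 had intensities of 12.2 and 9.78 on the ID8G arrays, neither well above background, and of 113 and 48.9 on the GO2 arrays, both well above it. The corresponding levels were -5.80 and -6.09 in ID8G cells and -2.49 and -3.68 in GO2 cells. The lines did not overlap, but the GO2 replicates differed from each other more than those of any other tested probe of these genes, with an SD of 0.85. The lowest signal well above background on the second GO2 array was 43.6, so the Tnc signal there was near the limit. Because the probe was measured in GO2 cells only, its size is a bound, at least 1.51-fold higher in GO2 cells, or 0.59 on the log2 scale. The fitted log2 difference of 2.86 (limma, adjusted p = 0.013) is against ID8G signals not well above background and is no measured size. The probe entered the test through its GO2 arrays alone, so it could only be found higher there. The call was lost with signals raised to the lowest signal well above background (adjusted p = 0.323), with limma treat against a minimum of 2-fold (adjusted p = 0.131) and without a filter on dim probes (adjusted p = 0.067). A second Tnc probe, A_52_P355169, was well above background on no array, with levels of -5.72 and -6.01 in ID8G cells and of -4.24 and -4.60 in GO2 cells.

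**Figure D2:**
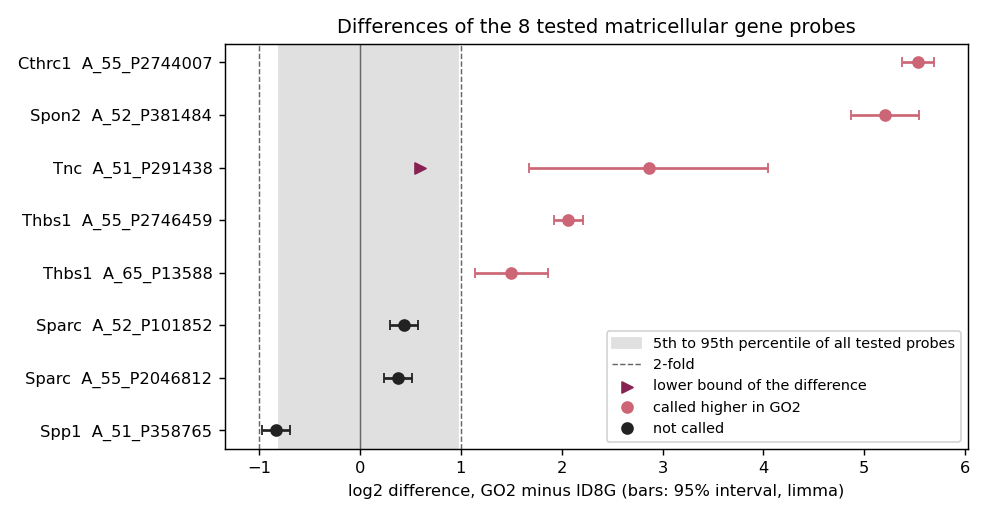
Log2 difference, GO2 minus ID8G, of the 8 tested probes, with 95% intervals from limma. Dashed lines mark 2-fold, the gray band spans the 5th to the 95th percentile of all tested probes (-0.80 to 0.97), and the triangle is the lower bound for Tnc at 0.59, whose fitted point and interval are against ID8G signals not well above background. The 5 probes called higher lie to the right of the band, the Sparc probes lie within it, and the Spp1 probe lies just to the left of it.

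Sparc encodes osteonectin, a collagen-binding glycoprotein that weakens the adhesion of cells and helps collagen fibrils to assemble. The probe A_55_P2046812 had intensities of 296364 and 301577 in ID8G cells and of 365113 and 364302 in GO2 cells, none marked as saturated. The levels were 8.78 and 8.82 in ID8G cells and 9.17 and 9.18 in GO2 cells. The other probe, A_52_P101852, had levels of 6.30 on both ID8G arrays and of 6.73 and 6.75 in GO2 cells. Both probes were higher on both GO2 arrays by a small and similar amount. Their log2 differences were 0.38 (95% interval 0.24 to 0.52, adjusted p = 0.0102) and 0.44 (95% interval 0.30 to 0.58, adjusted p = 0.00647; limma), or 1.30-fold and 1.36-fold. These passed the p threshold but not the 2-fold minimum, and both intervals lay below 2-fold. With the arrays scaled to their spike-in RNAs the differences were 0.17 (adjusted p = 0.275) and 0.23 (adjusted p = 0.146), and without a filter on dim probes the adjusted p-values were 0.0907 and 0.0681, so the p threshold was missed in both settings. Sparcl1, which encodes the SPARC-like protein hevin, was measured by a probe with 10 spots on each array. It was above background on none of the arrays, with levels from -6.07 to -5.49.

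Spp1 encodes osteopontin, a cytokine-like phosphoprotein that binds alpha v integrins and CD44 and attracts macrophages. Its probe, A_51_P358765, had intensities of 192185 and 188188 in ID8G cells and of 100380 and 101121 in GO2 cells. The levels were 8.15 and 8.14 in ID8G cells and 7.30 and 7.33 in GO2 cells. Both GO2 arrays lay below both ID8G arrays, by far more than the replicates differed. The log2 difference was -0.83 with an SE of 0.05 and a 95% interval from -0.97 to -0.69, or 1.77-fold lower (limma, adjusted p = 0.00135). It passed the p threshold but not the 2-fold minimum. With the arrays scaled to their spike-in RNAs the difference was -1.03 and the probe was called lower, while the median of all tested probes moved from -0.02 to -0.23 on the log2 scale.

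Postn encodes periostin, a fasciclin-domain protein that activated fibroblasts deposit and that binds collagen and tenascin-C. The 3 Postn probes were above background on no array. The probes A_51_P489192 and A_55_P2619020 stayed between -6.01 and -5.71 on all 4 arrays. A_55_P2503766 had levels of -5.68 and -6.07 in ID8G cells and of -5.30 and -4.44 in GO2 cells, so that its GO2 values lay above its ID8G values but below the limit of -3.85 to -3.53 at which probes were well above background.

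The median difference of the 6 tested matricellular genes, each by its brightest tested probe, was 2.46 on the log2 scale, or 1.33 with Tnc at its bound. Over all 13215 tested gene symbols the median was -0.00041. This is a description of a chosen list. The 3 genes measured in both lines and called higher (Cthrc1, Spon2 and Thbs1) kept their calls when any 1 array was left out, with differences from 5.49 to 5.58, from 5.04 to 5.36 and from 2.05 to 2.08 for the brightest probe of each. The fitted Tnc difference, which is no measured size, ranged from 2.26 to 3.46.

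The families of these proteins were mostly represented by a few measured genes. Over all tested gene symbols, 6.44% were called higher and 4.33% lower, and the family counts stand beside these shares. A gene whose change is given with "at least" passed the filter through 1 cell line alone, as Tnc did, and could only be found higher in that line. Where such a bound is below 2-fold, the call rests on the fitted difference and 2-fold was not measured. In the SPARC family, 4 of 8 genes were tested and 2 were called higher. Smoc2, which encodes a secreted modular calcium-binding protein, was dim in ID8G cells (-4.31 and -5.25) and measured in GO2 cells (-3.04 and -3.10), at least 1.52-fold higher. Fstl1, which encodes follistatin-like 1, rose by 1.05 (SE 0.05, adjusted p = 0.000877), and its second probe by 1.04. Spock1, a testican gene, differed by -0.49 without passing the test (adjusted p = 0.276).

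Of the 5 thrombospondin genes, Thbs1 and Thbs3 were tested, and both were called higher. Thbs3, which encodes a pentameric thrombospondin, had levels of -2.60 and -3.23 in ID8G cells and of -0.77 and -0.54 in GO2 cells, a rise of 2.26 (SE 0.24, adjusted p = 0.00535, limma). Of the 4 tenascin genes, Tnc was called higher and Tnxb, which encodes the tenascin that stabilizes collagen in loose connective tissue, was called lower by 1.12 (SE 0.07, adjusted p = 0.00153). Among 7 spondin and R-spondin genes, 4 were tested and Spon2 was the single call. Rspo1, a Wnt amplifier, differed by -0.44 (adjusted p = 0.651) with ID8G levels of -1.62 and -3.61 that were themselves far apart, and Sspo by -0.53 (adjusted p = 0.0205).

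The CCN family of cysteine-rich matricellular proteins had 4 of 6 genes tested and 2 called higher. Ccn1, also known as Cyr61 and a ligand of integrins, had levels of 0.39 and 0.47 in ID8G cells and of 2.44 and 2.39 in GO2 cells, 3.95-fold higher (limma, adjusted p = 0.000317). Ccn5 was not well above background in ID8G cells (-5.78 and -5.66) and was measured in GO2 cells (-2.80 and -2.95), at least 1.74-fold higher. Ccn2, the connective tissue growth factor gene, had a difference of -0.87, opposite in sign to Ccn1, and Ccn4 one of 0.73. Both passed the p threshold (limma, adjusted p = 0.00148 and 0.00309) but neither reached 2-fold. In the family of Spp1, 2 of 5 genes were tested and 0 were called, although Spp1 itself passed the p threshold. Mepe, near the limit of detection, was well above background on both arrays in GO2 cells alone. Its fitted difference was 0.15 (limma, adjusted p = 0.121) and its bound 0.08. Of the 4 fasciclin-domain genes, Tgfbi and Stab2 were tested and 0 were called, with 0 at an unadjusted p below 0.05 (limma). Stab2, a scavenger receptor gene, differed by -0.26 (adjusted p = 0.128), and Tgfbi had ID8G levels of -5.84 and -1.74, which lay on both sides of its GO2 levels of -2.14 and -2.32.

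**Figure D3:**
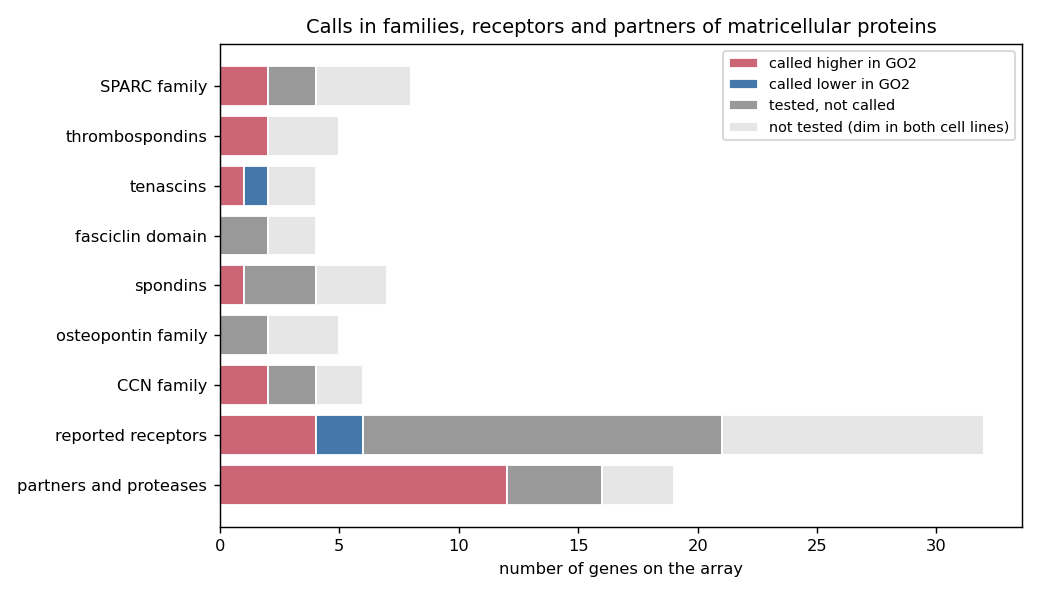
Number of genes on the array in each family of the matricellular genes and in the lists of receptors and of partners and proteases, split by call. Red counts genes called higher in GO2 cells, blue those called lower, dark gray those tested and not called, and light gray those too dim to test in both lines. The list of partners and proteases had 12 of 16 tested genes called higher, the receptors 4 of 21. Over all tested gene symbols, 6.44% were called higher and 4.33% lower.

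The cell surface receptors reported for these proteins had calls in both directions. Of 32 receptor genes, 21 were tested, 4 were called higher and 2 were called lower, where 6.44% of all tested gene symbols were called higher and 4.33% lower. The median difference was 0.0015. Vldlr, a lipoprotein receptor that also binds thrombospondin-1, had levels of 0.01 and -0.0018 in ID8G cells and of 2.30 and 2.29 in GO2 cells, 4.90-fold higher (limma, adjusted p = 0.000217). Fzd6, a Frizzled receptor, rose by 2.07 (SE 0.07, adjusted p = 0.000351). Vangl2, a core gene of planar cell polarity that works with Frizzled receptors, rose at least 2.99-fold.

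Among the integrin genes the calls were in the other direction. Itga6, the alpha 6 subunit that pairs with beta 1 or beta 4 to bind laminin, had levels of 5.43 and 5.49 in ID8G cells and of 3.41 and 3.51 in GO2 cells. It was lower by 2.0 on the log2 scale, or 4.0-fold (SE 0.06, adjusted p = 0.000325, limma), and its other 2 probes were called lower as well. Itgb3, the partner of alpha v in the osteopontin receptor, fell by 1.19 by its brightest probe (SE 0.06, adjusted p = 0.000924), while its dimmer probe differed by -0.78 and did not reach 2-fold. Itgb1 differed by -0.30 and Calr, the gene of calreticulin, which binds thrombospondin-1 at the cell surface, by 0.76. Both passed the p threshold (limma, adjusted p = 0.0173 and 0.0016) but neither reached 2-fold. Lrp1, the endocytic receptor that takes up thrombospondins, rose by 1.05 (adjusted p = 0.00155). Of the classical receptors for osteopontin and thrombospondin-1, Cd44 differed by 0.09 (95% interval -0.05 to 0.23), Itgav by 0.19 (0.01 to 0.37) and Cd47 by -0.27 (-0.43 to -0.12), all within 2-fold. Among them Cd47 alone passed the p threshold (limma, adjusted p = 0.0289). Cd36, which thrombospondin-1 also binds, was above background on no array. Itgb3, Lrp1, Cd44, Itgav and Cd47 were singled out after their values were seen.

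In a list for TGF-beta activation and response, of which 18 genes are reported here, all 18 were tested and 3 of them were called higher, against 6.44% of all tested gene symbols. Tgfbr3, which encodes the co-receptor betaglycan, had levels of -5.85 and -3.81 in ID8G cells, the first not well above background, and of 0.41 and 0.57 in GO2 cells, at least 17.9-fold higher (limma, adjusted p = 0.00977). Ltbp2 and Ltbp1, genes of latent TGF-beta binding proteins, rose at least 2.22-fold and by 2.44-fold. Tgfb3 differed by 0.65 and Ltbp3 by -0.62. Both passed the p threshold (limma, adjusted p = 0.00233 and 0.0067) but neither reached 2-fold.

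The list of matrix partners and proteases, which also holds genes that are neither, such as Timp1 and Wnt5a, had the most calls. Of its 19 genes, 16 were tested, 12 were called higher and 0 lower, against 6.44% and 4.33% of all tested gene symbols, with a median of 2.50. Col1a2, the alpha 2 chain of type I collagen, had levels of -2.93 and -3.35 in ID8G cells and of 4.35 and 4.34 in GO2 cells, a rise of 7.49 (SE 0.15), or 179.7-fold (limma, adjusted p = 0.000207). Col1a1, the other chain of that collagen, went from 1.30 and 1.33 to 5.98 and 6.04, a rise of 4.69 (SE 0.05). Col3a1 rose by 4.20 (SE 0.09), and Col5a2 at least 12.8-fold. Timp1, a metalloproteinase inhibitor gene, differed by 0.74 and Bmp1, which encodes the procollagen C-proteinase, by 0.16, and neither was called. Timp1 passed the p threshold but not the 2-fold minimum (limma, adjusted p = 0.0044). Among the proteases of the list, Mmp14, Adamts1 and Adamts4 (at least 5.57-fold) were called higher, and Mmp2 and Bmp1 were not called. Mmp3, Mmp7 and Mmp9 were above background on no array. Apart from Bmp1, these proteases, Wnt5a and Fn1 were named after their values were seen. Wnt5a, the noncanonical Wnt ligand, rose by 2.56 (SE 0.08), Mmp14, a membrane-bound collagenase gene, by 2.53 (SE 0.06) and Fn1, the fibronectin gene, by 1.55 (SE 0.07).

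**Figure D4:**
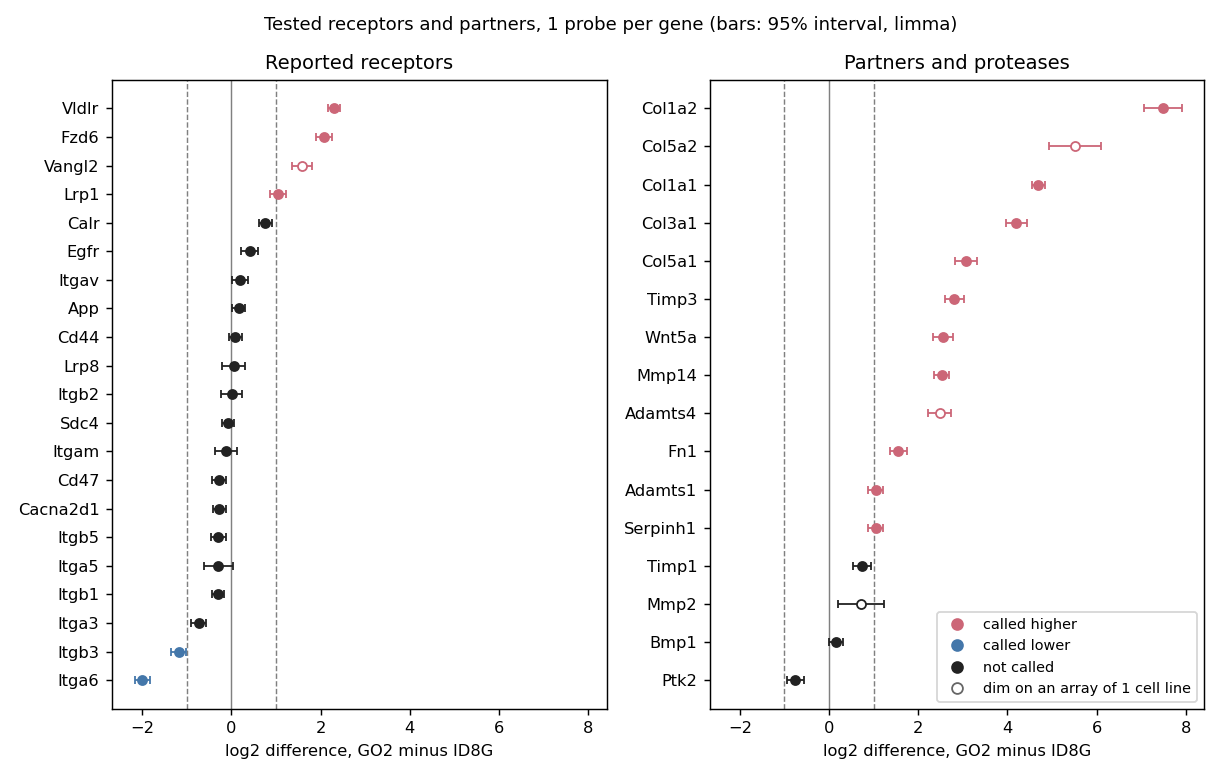
Log2 difference, GO2 minus ID8G, of each tested receptor gene (left) and each tested partner or protease gene (right), by the brightest tested probe, with 95% intervals from limma. Red marks were called higher, blue lower and black not called, hollow marks were not well above background on an array of 1 cell line, and dashed lines mark 2-fold. The receptors run from -2.0 (Itga6) to 2.29 (Vldlr), and the partners from -0.76 to 7.49 (Col1a2).

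Fibroblasts also make these collagens and several matricellular proteins, so marker genes were read on the same arrays. Their counts stand beside the same 6.44% higher and 4.33% lower. Of 11 fibroblast markers, 8 were tested and 5 were called higher in GO2 cells, 3 of which (Col1a1, Col1a2 and Col3a1) are also in the list of partners. Pdgfra, the receptor for PDGF, rose by 3.70 (SE 0.08). The fifth was Pdgfrb, at least 2.42-fold higher. S100a4 and Dcn, the decorin gene, differed by -0.21 and -0.63 without a call, though Dcn passed the p threshold (limma, adjusted p = 0.00309). The markers Fap, Lum and Thy1 were above background on no array. The summed linear level of the 11 markers was 288 and 279 in ID8G cells and 348 and 338 in GO2 cells. Such a sum weighs the brightest probes most, in ID8G cells those of S100a4 and Dcn, and does not show the rises of dimmer markers. The part of such markers in the results for Cthrc1, Spon2, Thbs1 and Tnc was not tested.

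Of 15 macrophage markers, 9 were above background on no array, among them Ptprc (CD45), Adgre1, Lyz2 and Mrc1, and 0 of the 6 tested were called by limma. A probe of 3 genes, Cd14, C1qb and Csf1r, had an unadjusted p below 0.05. Cd14 (-0.69, limma, adjusted p = 0.0021) passed the adjusted threshold but not the 2-fold minimum. C1qb also did (adjusted p = 0.0442), but was measured in ID8G cells only, at least 1.44-fold lower in GO2 cells. Csf1r did not pass it (adjusted p = 0.103). By their brightest probes Itgam differed by -0.13 and Csf1r by 0.22. Their summed level was 22.8 and 25.5 in ID8G cells and 22 and 22.1 in GO2 cells. Endothelial markers were above background for 1 of 8 genes (Pecam1, 0.08), and of the 2 lymphocyte markers tested, Cd3e and Cd4, 0 were called, with 1, Cd3e, that had a probe at an unadjusted p below 0.05. Its dimmer probe differed by 0.30 (adjusted p = 0.0489), short of 2-fold. Among 10 mesothelial markers, 9 were tested, Upk3b was higher by 1.08 and Krt19 lower by 1.65. Of 10 epithelial markers, 5 were tested, and Cldn3 and Krt19 were called lower, by 2.37 and 1.65. ID8 cells derive from the mouse ovarian surface epithelium, which shares markers with mesothelium. Of these, the keratin genes Krt8 (-0.55) and Krt18 (-0.81), Wt1 (-0.10) and Msln (-0.82) were measured in both lines without a call. Krt8, Krt18 and Msln passed the p threshold as lower in GO2 cells (limma, adjusted p = 0.00438, 0.00162 and 0.00176) but not the 2-fold minimum. Wt1 did not pass the p threshold (adjusted p = 0.478). Epcam, Krt7, Cldn4 and Muc1 were above background on no array. Of 8 smooth muscle and pericyte markers, 4 were tested and 3 were called higher. Mcam differed by 0.25 and passed the p threshold (limma, adjusted p = 0.0348) but not the 2-fold minimum. Myh11, Des and Rgs5 were above background on no array. Cnn1 rose at least 2.58-fold, Tagln by 1.46, and Acta2 by 5.64 with 1 of its dimmer probes and at least 2.62-fold with the other, while its brightest differed by 0.30. Of 8 adipocyte markers, 4 were tested and 2 were called lower, Fabp4 and Lpl. Fabp4 was at least 6.28-fold lower by its brighter probe and at least 1.79-fold by the other, and Lpl was lower by 1.53. Pparg (-0.42) and Lep (-0.04) were not called, though Pparg passed the p threshold (limma, adjusted p = 0.0151). Adipoq and Plin1 were above background on no array. The summed linear level of the epithelial markers was 562 and 544 in ID8G cells and 284 and 286 in GO2 cells. It was 671 and 664 against 382 and 386 for the mesothelial markers and 27.6 and 27.2 against 11.3 and 10.5 for the adipocyte markers. Krt8, Krt18 and Krt19 are in both the epithelial and the mesothelial list and had the highest ID8G levels of either list. The sums of these lists are therefore not independent. The smooth muscle and pericyte markers summed to 53.7 and 55.2 against 66.5 and 68.3, the lymphocyte markers to 4.94 and 4.82 against 5.18 and 4.89, and the endothelial markers to 0.254 and 0.205 against 0.228 and 0.255. Pdgfrb, Cd14, C1qb, Wt1 and Msln were named after their values were seen.

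The place of the genes in the genome was read from the RefSeq order on GRCm38.p6, taking up to 3 protein-coding genes on each side. Of 58 such neighbors, 41 were tested, 4 were called higher and 1 lower, against 6.44% and 4.33% of all tested gene symbols. Next to Cthrc1 on chromosome 15 lie Fzd6 and then Baalc. Baalc was not well above background in ID8G cells and was measured in GO2 cells, with a bound of 0.92 on the log2 scale, so it could only be found higher. The genes beyond them, Atp6v1c1 on one side (-0.17) and Slc25a32 (0.10) and Dcaf13 (0.08) on the other, were not called. Smoc2 is the neighbor of Thbs2 on chromosome 17, and Gpr176, near Thbs1 on chromosome 2, rose by 1.11 (SE 0.06, adjusted p = 0.00106, limma). Supt20, next to Postn on chromosome 3, was called lower by a dim probe (-1.66, adjusted p = 0.0464) but not by its brightest (-0.18). Around Spon2 on chromosome 5 the 5 tested neighbors differed by -0.23 to 0.45 and 0 were called. Spp1 and Sparcl1 lie on either side of Dspp, Dmp1, Ibsp and Mepe on chromosome 5, of which Mepe alone was tested.

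Each array gave 59305 spots that were not controls, and 27502 to 28841 probes per array were well above background. No spot was saturated, and 132 to 195 spots per array were marked as outliers and left out. Replicates correlated at 0.997 over the tested probes, arrays of different lines at 0.967 to 0.968. The precision is limited by the number of arrays, since 2 against 2 cannot give a two-sided exact permutation p below 0.333, and the p-values above rest on a spread that limma pools over all tested probes.

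**Figure D5:**
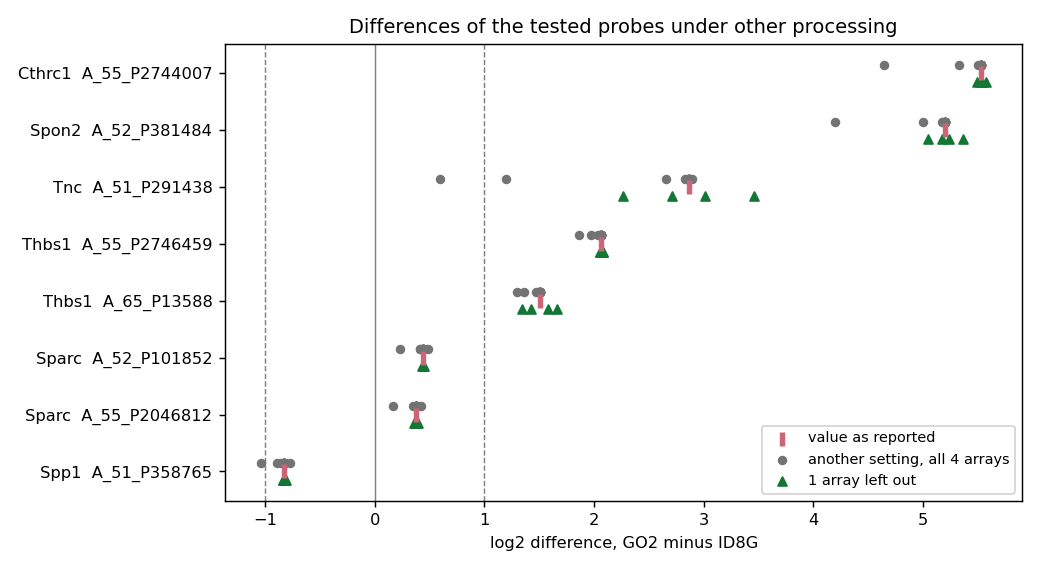
Log2 difference, GO2 minus ID8G, of the 8 tested probes as reported (red ticks), under other processing of all 4 arrays (gray circles) and with 1 array left out (green triangles). No value crossed 0, but settings that change only the test, filter or threshold leave the value as reported. Leaving out 1 array could not change a sign, since the lines did not overlap for any of these probes. Cthrc1 stayed between 4.65 and 5.58 and Spon2 between 4.20 and 5.36, whereas the fitted value of Tnc ranged from 0.59 to 3.46.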

How the data were processed

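For each of the 2 cell lines, RNA was hybridized to 2 Agilent arrays, all on 1 slide, so that no slide block could be fitted. The authors deposited scanner files with the intensity of each spot, which Feature Extraction 11.5.1.1 had corrected for background but not scaled between arrays, and with the marks of that software for outlier, saturated and well-above-background spots. The authors' value table holds log2 values. Set against the scanner files, these were the log2 intensity relative to the 75th percentile, centered on the median of each probe, within 0.00545. They served as 1 alternative, and 0 value columns were left unused. The methods name GeneSpring without its settings.

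Here outlier spots were left out, spots of a probe were averaged, and log2 intensity, relative to the array's 75th percentile, was fitted on cell line alone in limma 3.58.1 (R 4.3.3), with Benjamini-Hochberg adjustment over 28368 probes. Where a line lacked a signal well above background on either array, the fold is a lower bound, taken on each array from the higher of the probe's own level and the lowest level well above background. A gene was called if any probe was called and none the other way. Symbols came from RefSeq accessions (GRCm38.p6) for 32994 probes. Since the design of the arrays is on mm9, no gene coordinates are given.

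The members and the gene lists (7 families, receptors, TGF-beta, partners and proteases, 8 sets of markers) were chosen with earlier results of these data known. A result of the TGF-beta list is not reported here, and the counts of that list leave it out. All members are named, and from each list at most the 4 called genes with the largest difference and the 2 uncalled genes with the highest level, with tested neighbors. Tested genes outside this rule are marked as such in the text. Replicate numbers did not pair the arrays (correlation of deviations 0.03). The alternatives covered background correction, scaling, filters, a floor, outlier spots, the variance model, the test, the threshold, a replicate block, the value table and leaving out each array. The procedure was tested on simulated data. Figures were drawn with matplotlib 3.10.9.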

Additional observations from a re-analysis of the deposited data

How the results depend on the processing

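None of the 8 tested probes changed direction under any alternative run, but most alternatives could not have changed it. A replicate block or another test, variance model, filter or threshold leaves the difference itself as it was. The lines did not overlap for any of the 8 probes, so leaving out 1 array could not change the sign either. Only background correction, scaling, the floor, outlier spots and the value table alter the values themselves. Of the recomputed values, 137 kept their direction and side of the threshold, while 4 became called and 10 lost a call. By the methods' t-test, 0 probes and 0 genes were called higher after Benjamini-Hochberg adjustment, with adjusted p-values of 0.126 for Cthrc1, 0.153 for Spon2 and 0.0965 for the brighter Thbs1 probe. Unadjusted, at its threshold of 0.05, the same t-test called Cthrc1, Spon2 and Thbs1 but not Tnc. With limma treat, 3 probes were called higher, those of Cthrc1 and Spon2 and the brighter one of Thbs1. Scaling to the spike-ins and dropping the minimum difference each called 1 probe and 1 gene lower, Spp1 in both cases, and dropping the minimum also called Sparc higher. Tnc was not tested where probes had to be well above background on all 4 arrays. Without any filter the Tnc gene was called through its second probe, which was well above background on no array. With the replicate block 5 probes and 4 genes were called higher and 0 lower, and the block changed no call (Tnc, adjusted p = 0.0196). Leaving out each array in turn, with the lone array left assumed to vary like the other line, gave 5 probes and 4 genes higher and 0 lower each time. Members not well above background have only an upper limit in both lines. No slide block could be fitted.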

Other observations

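A few genes of the lists had ID8G arrays that disagreed with each other. Tgfbi, a fasciclin-domain gene, read -5.84 on one ID8G array and -1.74 on the other, an SD of 2.90, against 0.13 between the GO2 arrays. Rspo1 had an SD of 1.40 in ID8G cells and 0.11 in GO2 cells, and Tgfbr3 1.44 and 0.11. The fitted differences of these genes between the cell lines rest on such values. For Tgfbr3 the bound of at least 17.9-fold does not use the lower ID8G value. It takes that array at its lowest level well above background.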
